A study of Mus musculus with 2 samples.

Results

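The naive pluripotency transcription factor network is described here through 7 genes, Tfcp2l1, Esrrb, Nr5a2, Prdm14, Tbx3, Zfp42 and Nr0b1, taken by gene symbol from a table of 51826 genes. All 7 were listed, and all 7 averaged 1 TPM or more over both libraries, as did 12943 genes in all. TPM is transcript abundance scaled for gene length and for the library's total. Total RNA was sequenced from v6.5 mouse embryonic stem (ES) cells in 1 library of T29I mutant cells and 1 library of wild-type (WT) cells, the mutation lying in the gene that the series title calls PRSS1. The strain label of both libraries is NBA1-19349, a name other than v6.5, and the labels do not reconcile them. They give no clone, passage number, culture medium or feeder layer. With 1 library per group, "higher" and "lower" describe these 2 libraries, nothing is replicated, and no p-value is given. Genotype and every other difference between the 2 cultures and libraries cannot be told apart.

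Naive ES cells resemble the epiblast of the embryo before implantation and are held in that state by a set of transcription factors that bind one another's genes. Leukaemia inhibitory factor acts through Stat3 on Tfcp2l1 and Klf4, Wnt signalling relieves repression of Esrrb by Tcf7l1, and Prdm14 holds down FGF receptor signalling and de novo DNA methyltransferase genes. When cells leave the naive state these factors are lost early, while Pou5f1, which encodes Oct4, stays on in the epiblast after implantation.

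All 7 are annotated as protein-coding. In GENCODE M21 on GRCm38 they lie on 5 chromosomes, with Tfcp2l1 at chr1:118627945-118685168 (+ strand), Esrrb at chr12:86361117-86521628 (+ strand), Nr5a2 at chr1:136842571-136960448 (- strand), Prdm14 at chr1:13113457-13127163 (- strand), Tbx3 at chr5:119670669-119684724 (+ strand), Zfp42 at chr8:43295063-43306980 (- strand) and Nr0b1 at chrX:86191764-86195947 (+ strand). GENCODE lists 1 transcript for Prdm14 and for Nr0b1, 2 for Tfcp2l1, 3 for Zfp42 and 6 for each of Esrrb, Nr5a2 and Tbx3, and the deposited values do not tell transcripts of a gene apart.

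Of the 7 genes, 5 had a promoter window in the RefSeq table for GRCm38.p6, in 7 windows of 300 bases that run from 250 bases before a transcript start to 50 after it. Prdm14 and Tbx3 were not among them. The windows of 4 genes are printed because these genes span the range of the responses described below, with Tfcp2l1 and Zfp42 the most different between the libraries and Esrrb and Nr0b1 the least. Each reads 5′ to 3′ on the gene's strand, with capitals for the letters that matched 1 of the patterns searched. The coordinates are chr1:118627695-118627994 (+ strand) for Tfcp2l1, chr8:43306960-43307259 (- strand) for Zfp42, chr12:86360867-86361166 (+ strand) for the first of the 2 windows of Esrrb, and chrX:86191525-86191824 (+ strand) for Nr0b1.
Tfcp2l1: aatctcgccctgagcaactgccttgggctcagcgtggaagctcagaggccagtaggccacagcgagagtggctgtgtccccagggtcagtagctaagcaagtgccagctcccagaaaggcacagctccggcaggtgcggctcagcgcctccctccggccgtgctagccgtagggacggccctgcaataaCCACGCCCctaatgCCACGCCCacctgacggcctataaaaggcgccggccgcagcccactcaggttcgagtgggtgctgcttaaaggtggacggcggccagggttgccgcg
Zfp42: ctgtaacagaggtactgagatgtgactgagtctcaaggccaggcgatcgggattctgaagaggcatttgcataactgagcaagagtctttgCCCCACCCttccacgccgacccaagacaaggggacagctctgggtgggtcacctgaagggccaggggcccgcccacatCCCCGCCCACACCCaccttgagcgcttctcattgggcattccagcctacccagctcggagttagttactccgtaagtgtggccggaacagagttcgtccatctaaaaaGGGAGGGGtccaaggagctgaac
Esrrb: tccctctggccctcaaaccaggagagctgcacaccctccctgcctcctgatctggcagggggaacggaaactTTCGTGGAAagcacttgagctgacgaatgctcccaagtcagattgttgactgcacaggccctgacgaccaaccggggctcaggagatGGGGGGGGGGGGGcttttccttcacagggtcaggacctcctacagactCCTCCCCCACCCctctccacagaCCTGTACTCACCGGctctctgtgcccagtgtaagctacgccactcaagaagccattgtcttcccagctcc
Nr0b1: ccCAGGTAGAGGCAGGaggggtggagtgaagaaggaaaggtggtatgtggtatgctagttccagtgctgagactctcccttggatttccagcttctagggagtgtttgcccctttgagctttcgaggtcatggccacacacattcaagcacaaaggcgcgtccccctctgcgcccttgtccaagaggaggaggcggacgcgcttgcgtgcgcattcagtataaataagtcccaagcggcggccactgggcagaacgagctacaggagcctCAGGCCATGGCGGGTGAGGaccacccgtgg

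The patterns were exact letters searched on both strands. Positions give the first letter of a match in the printed direction, counted from the transcript start. CCNCNCCC, a loose form of the site bound by Krüppel-like factors such as Klf4, was present in 6 of the 7 windows and in all 5 genes, and 49.5% of all 32851 promoter windows hold it. In the Tfcp2l1 window it stood at 61 and 47 bases before the start, as the same letters CCACGCCC in both places. In the Zfp42 window the matches stood at 159, 81 and 75 bases before the start and at base 28 after it, and those at 81 and 75 overlap. The Esrrb window held a run of G that gave 6 overlapping matches. The Tfcp2l1 pattern, CCNG, any 6 bases and CCNG, matched in 1 place in Esrrb, at 20 bases before the start, and in 2 places in Nr0b1, at 248 bases before the start and base 21 after it, and the second of these shares 3 bases with a CCNCNCCC match. That pattern is present in 29.5% of all windows. TTCNNNGAA, the Stat pattern, matched in Esrrb alone, at 178 bases before the start, against 8.30% of all windows. TCAAGGTCA (Esrrb and Nr5a2), GGTCTCTAA (Prdm14), AGGTGTGA (T-box factors) and AAGATGGC (Yy1 and Zfp42) matched in 0 of the 7 windows, and 0.423%, 0.256%, 1.28% and 2.75% of all windows hold them. A match is a description of letters only. By base composition the Tfcp2l1 window had a GC content of 65.3%, and the first window of Nr5a2 42.0%, around a median of 52.7% over all windows.

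All 7 factors were lower in T29I. Summed, they held 208 TPM in T29I and 1424 TPM in WT, 6.84-fold lower. Each factor was at least 2-fold lower on the log2(TPM + 1) scale, a scale that understates differences of low genes. By the same rule 45.7% of the 12943 genes were lower, and 9.97% were higher. The median log2 ratio of T29I over WT was -3.72 for the 7 factors and -0.84 for the 12943 genes. In bulk RNA, fewer cells that express a gene and less RNA per cell cannot be told apart.

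**Figure D1:**
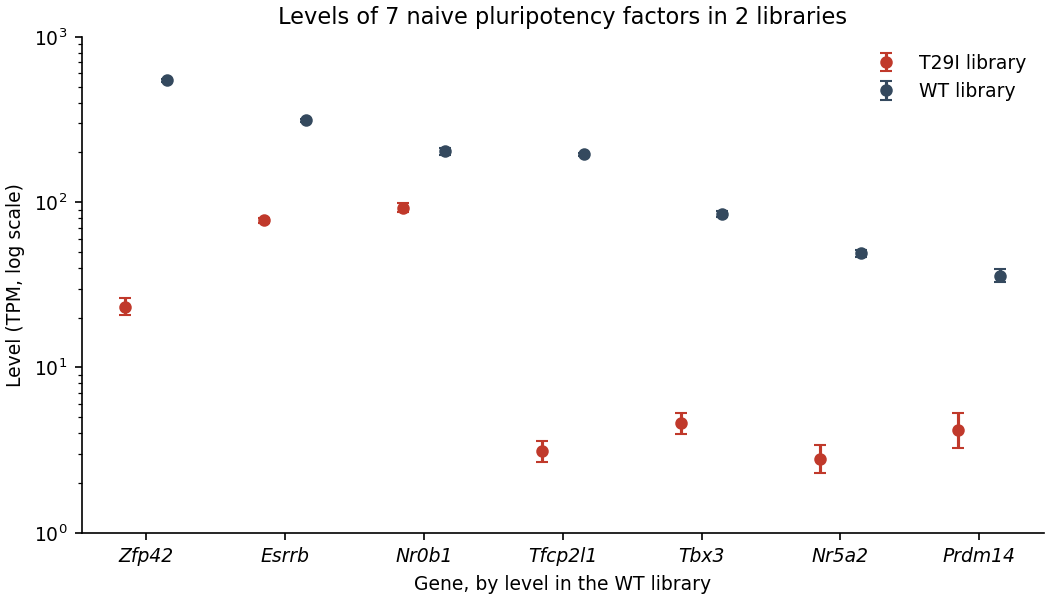
Level of each factor in TPM on a log axis, with the T29I library in red and the WT library in dark blue, ordered by the level in WT. Bars are 95% Poisson counting intervals of single libraries; every T29I point lies below its WT point, and the T29I levels run from 2.80 to 92.7 TPM.

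Tfcp2l1, a CP2-family factor that responds to Stat3 and is sufficient to sustain self-renewal when supplied in excess, was the most different of the 7. It was at 3.11 TPM in T29I (counting interval 2.69 to 3.58) and 194 TPM in WT (190 to 198). By the read estimate, 194 reads in T29I and 9508 in WT stand behind these levels. The level in T29I was thus 1.60% of that in WT, 62.4-fold lower, and its log2 ratio of -5.57 stood at rank 15 from the lowest of 12943. Of 1643 genes with at least 100 TPM in WT, 14 were below 5 TPM in T29I, and Tfcp2l1 was 1 of them.

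Zfp42, which encodes the zinc finger protein Rex1 and is a standard reporter of the naive state, was the most abundant of the 7 in WT. It was at 23.3 TPM in T29I (20.7 to 26.2) and 544 TPM in WT (529 to 559), 23.3-fold lower. The estimated reads were 290 in T29I and 5312 in WT. Zfp42 was the third most abundant of the 7 in T29I, and its log2 ratio of -4.49 stood at rank 66 from the lowest.

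Tbx3, a T-box factor placed downstream of PI3-kinase and LIF signalling, was at 4.60 TPM in T29I (3.98 to 5.27) and 84.8 TPM in WT (81.7 to 87.9). The level was 18.4-fold lower in T29I, with a log2 ratio of -3.94. Tbx3 overlaps an antisense gene, Tbx3os1, which was at 0.143 TPM in T29I and 0.973 TPM in WT, so the overlapping gene was far below Tbx3 in both. Its estimated reads were not whole numbers in either library, unlike those of the other 6 factors, and its counting intervals are therefore approximate.

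The nuclear receptors differed among themselves. Nr5a2, or LRH-1, which binds regulatory regions of Pou5f1, was at 2.80 TPM in T29I (2.30 to 3.37) and 49.1 TPM in WT (46.7 to 51.7), 17.6-fold lower. Esrrb, an orphan receptor that can replace Nanog in self-renewal, was at 77.5 TPM in T29I (74.8 to 80.3) and 313 TPM in WT (307 to 319), 4.04-fold lower. Nr0b1, or Dax1, an atypical receptor that lacks the zinc finger DNA-binding domain and restrains Nr5a2, was at 92.7 TPM in T29I (87.3 to 98.3) and 203 TPM in WT (194 to 212), 2.19-fold lower. Esrrb and Nr0b1 thus kept a moderate level in T29I, whereas Nr5a2 was there the lowest of the 7. The ratio of Esrrb to Nr5a2 was 27.7 in T29I and 6.37 in WT.

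Prdm14, a PR-domain zinc finger protein that recruits Polycomb repressive complexes and is also needed for primordial germ cells, was the least abundant of the 7 in WT. It was at 4.19 TPM in T29I (3.27 to 5.29) and 36.0 TPM in WT (32.8 to 39.4), 8.59-fold lower. The estimated reads were 71 in T29I, the fewest of the 7, and 479 in WT.

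The order of the factors differed between the libraries, with 6 of the 7 at another position. In the T29I library the order was Nr0b1, Esrrb, Zfp42, Tbx3, Prdm14, Tfcp2l1 and Nr5a2, and the counting intervals of neighbours overlapped throughout the last 4. In the WT library it was Zfp42, Esrrb, Nr0b1, Tfcp2l1, Tbx3, Nr5a2 and Prdm14, with overlap for Nr0b1 and Tfcp2l1 alone. Esrrb held the second place in both. Nr0b1 and Esrrb together made up 81.7% of the summed TPM of the 7 in T29I and 36.2% in WT. Zfp42 made up 11.2% in T29I and 38.2% in WT, and Tfcp2l1 1.49% in T29I and 13.6% in WT. Nr0b1 and Tfcp2l1, nearly level in WT, stood at a ratio of 29.8 in T29I and 1.05 in WT. Levels of at least 10 TPM were reached by 3 of the 7 in T29I and by all 7 in WT. The share of all genes past 10 TPM is not given here. Fewer genes reached 1 TPM in T29I, 11590, than in WT, 13174.

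**Figure D2:**
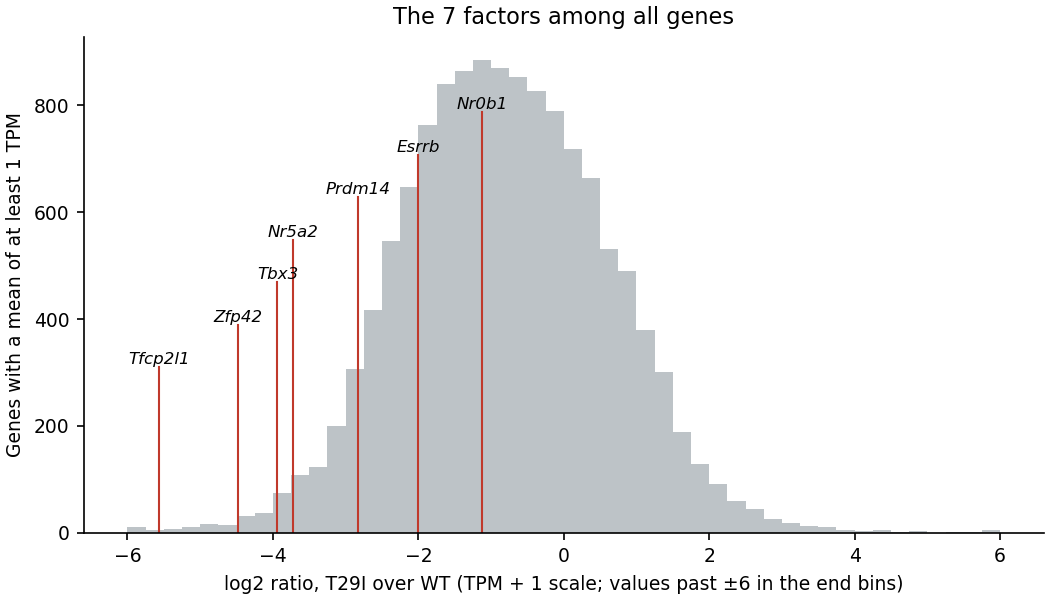
Number of genes (mean TPM 1 or more) in each bin of the log2 ratio of T29I over WT, with the 7 factors as red lines whose heights serve only to separate the labels. Tfcp2l1, Zfp42, Tbx3 and Nr5a2 lie in the low tail, and Nr0b1, at -1.12, lies in the middle of the distribution.

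Among all genes the 7 were spread widely as deposited. Tfcp2l1 and Zfp42 lay within the lowest 1% of log2 ratios, Tbx3 and Nr5a2 at 1.16% and 1.67% from the low end, and Prdm14 at 6.47%. Esrrb lay at 19.8% and Nr0b1 at 42.2%, so the difference of Nr0b1 as deposited was close to that of the typical gene. Over the 9375 genes averaging 5 TPM or more, the median log2 ratio was -0.90. Relative to this median shift 6 of the 7 were at least 2-fold lower, beside 22.2% of all genes, and Nr0b1, at -0.23, was not.

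To allow for transcript length and GC content, each factor was also taken relative to a curve of the log2 ratio fitted on both. How closely the log2 ratios of all genes followed this curve is not given here. The 7 factors had a median longest transcript of 4300 bases and a GC content of 50.5%, beside 3222 bases and 50.3% for 12121 protein-coding genes averaging 1 TPM or more. After this adjustment all 7 were at least 2-fold lower, beside 15.5% of 12920 genes, with a median of -2.20. The curve accounted for -2.56 of the log2 ratio of Tfcp2l1, whose longest transcript has 9269 bases, and for -1.81 of that of Nr5a2. The adjusted log2 ratios were -3.69 for Zfp42, -3.01 for Tfcp2l1, -2.90 for Tbx3, -2.20 for Prdm14, -1.92 for Nr5a2, -1.31 for Nr0b1 and -1.24 for Esrrb. By rank among the 12920 genes, 5 of the 7 then lay within the lowest 5%, Nr0b1 at 9.94% and Esrrb at 11.1%. Zfp42 was therefore the lowest of the 7 on the adjusted scale, and Nr0b1 was on the lower side of the 2-fold line as deposited and after adjustment but not relative to the median shift.

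Pairs of factors with alike transcripts, chosen after their values were seen, are given side by side. Tbx3 and Esrrb have longest transcripts of 4982 and 4300 bases with GC contents of 54.2% and 54.9%, and the curve gave them -1.04 and -0.76, and their log2 ratios were -3.94 and -2.00. Zfp42 and Nr0b1 are nearly equal in length, at 1837 and 1808 bases, though not in GC content, at 46.4% and 55.2%, and their log2 ratios were -4.49 and -1.12. The curve gave this pair -0.80 and 0.19.

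**Figure D3:**
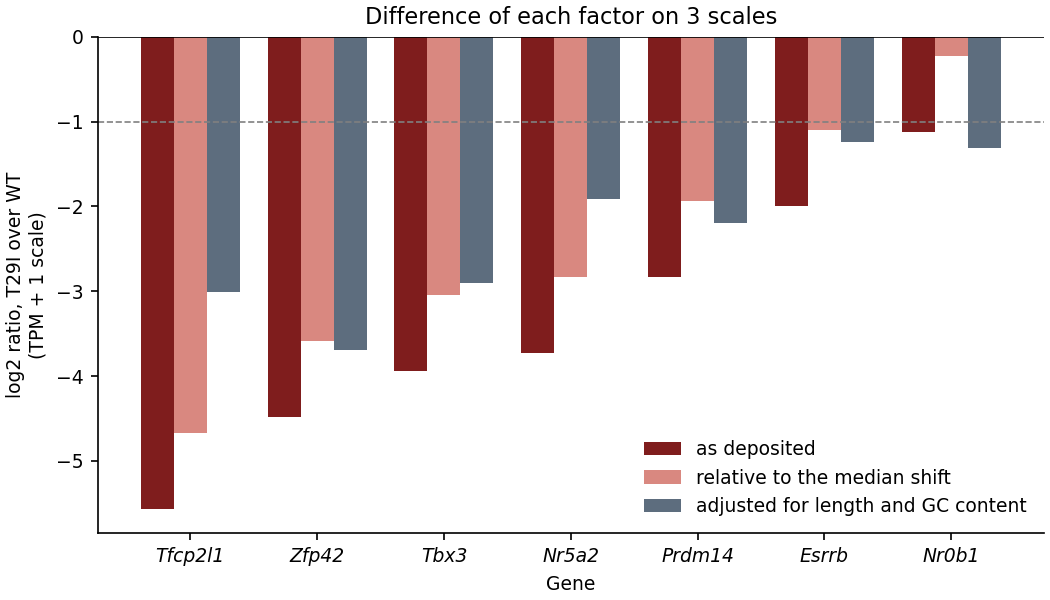
Log2 ratio of T29I over WT for each factor as deposited (dark red), relative to the median shift (light red) and adjusted for transcript length and GC content (grey), with the 2-fold line dashed. All bars point down, and the light red bar of Nr0b1, at -0.23, is the only one that stops short of the dashed line.

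Each factor was also set beside listed relatives in the same gene family. The CP2 relatives Tfcp2 and Ubp1 summed to 16.6 TPM in T29I and 87.5 TPM in WT, and Tfcp2l1 made up 15.7% of the family in T29I and 68.9% in WT. Zfp42 made up 38.9% of its family with Yy1 and Yy2 in T29I and 87.7% in WT. Yy1, a ubiquitous zinc finger factor, was at 28.6 TPM in T29I and 66.8 TPM in WT, and was thus above Zfp42 in T29I and below it in WT. Esrra, the estrogen-related receptor of oxidative metabolism, went the other way from Esrrb, at 26.4 TPM in T29I and 13.6 TPM in WT. Esrrb made up 74.6% of the family in T29I and 95.8% in WT, with Esrrg listed at 0 in both. Tbx3 made up 78.4% of 7 listed T-box genes in T29I and 97.4% in WT. Eomes, a T-box gene at 2.19 TPM in T29I and 6.21 TPM in WT, was not counted in this share. Among 8 PR-domain genes Prdm14 made up 16.1% in T29I and 31.6% in WT. Nr5a1 and Nr0b2 were at 0.0357 and 1.20 TPM in T29I and listed at 0 in WT, so Nr5a2 and Nr0b1 made up 98.7% of their families in the T29I library and 100% in the WT library.

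**Figure D4:**
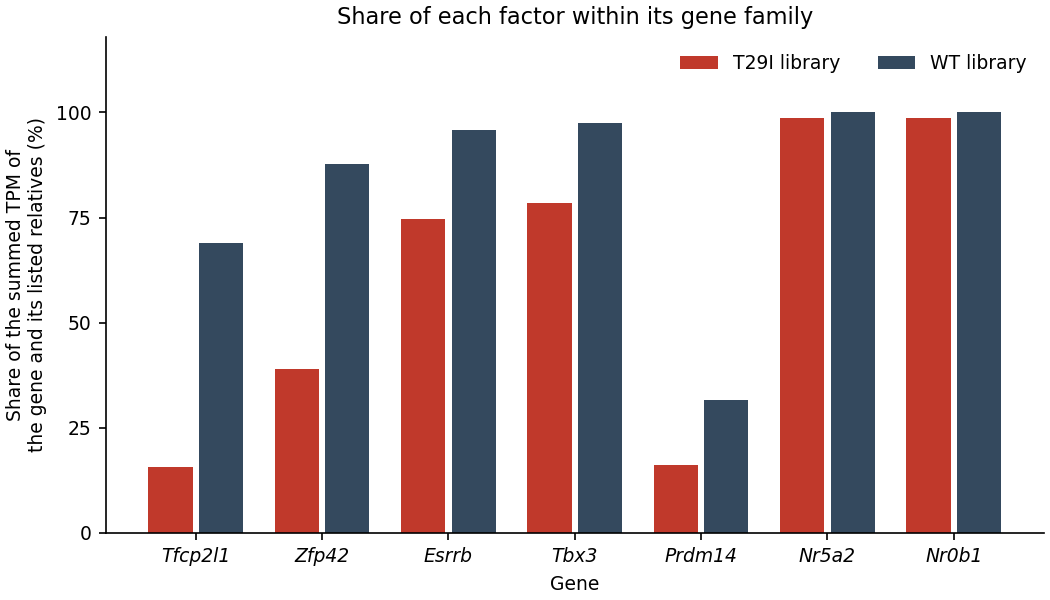
Share of each factor in the summed TPM of itself and its listed relatives, in percent, with T29I bars in red to the left of WT bars in dark blue. The share of Tfcp2l1 was 15.7% in T29I and 68.9% in WT, while Nr5a2 and Nr0b1 stood near the top in both.

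Of 21 relatives 10 averaged 1 TPM or more, of which 7 were lower and 0 higher by at least 2-fold as deposited, and 0 lower and 3 higher after adjustment, beside 45.7% lower and 9.97% higher, and 15.5% lower and 17.6% higher, over all genes. Their adjusted median was 0.021, beside 0.040 for all genes. As deposited, the lowest were Prdm10, at 1.57 TPM in T29I and 14.2 TPM in WT, and Ubp1, at 14.2 TPM in T29I and 75.1 TPM in WT.

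Among 16 other genes of the naive state, 10 were lower and 1 higher by at least 2-fold as deposited, and 8 lower and 2 higher, namely Dppa3 and Pecam1, after adjustment, with medians of -1.29 and -1.06. Over all genes, 45.7% were lower and 9.97% higher as deposited, and 15.5% lower and 17.6% higher after adjustment. The Krüppel-like factors Klf5 and Klf4 were at 11.4 and 11.0 TPM in T29I and 229 and 186 TPM in WT. Another Krüppel-like factor of the list, Klf2, was at 348 TPM in T29I and 303 TPM in WT, with an adjusted log2 ratio of -0.89. The adjusted log2 ratios of Klf5 and Klf4, -3.08 and -3.61, lay in the range of those of Zfp42, Tfcp2l1 and Tbx3. Tet2, a 5-methylcytosine dioxygenase, was at 0.489 TPM in T29I and 62.1 TPM in WT, while Dppa3, an oocyte and germ cell factor, was at 153 TPM in T29I and 72.6 TPM in WT. Nanog, with an adjusted log2 ratio of -1.48, lay between Nr5a2 and Nr0b1.

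Cofactors that work with the 7 were lower as deposited. Of 14, 13 were at least 2-fold lower and 0 higher, beside 45.7% lower and 9.97% higher over all genes. After adjustment 4 were lower, namely Eed, Ncor1, Jarid2 and Ncoa3, and 0 higher. Over all genes 15.5% were lower and 17.6% higher, and the adjusted median of the 14 cofactors was -0.44. Ncoa3, the coactivator that Esrrb recruits, was at 15.3 TPM in T29I and 139 TPM in WT. Cbfa2t2, the partner of Prdm14, was at 8.61 TPM in T29I and 43.4 TPM in WT, but its adjusted log2 ratio was -0.41. Jarid2, a subunit of the Polycomb complex that Prdm14 works with, was at 18.9 TPM in T29I and 213 TPM in WT, with an adjusted log2 ratio of -1.14. Ncor1, a corepressor, was the lowest as deposited, at 6.06 TPM in T29I and 91.5 TPM in WT.

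Genes of the signals that feed the network had an adjusted median near the 0.040 of all genes. Of 15, 9 were at least 2-fold lower and 1, Mapk3, higher as deposited, and 1 lower and 2 higher, namely Tfe3 and Fnip1, after adjustment, with an adjusted median of 0.082. Over all genes 45.7% were lower and 9.97% higher as deposited, and 15.5% lower and 17.6% higher after adjustment. The LIF receptor subunits Il6st and Lifr were at 2.92 and 4.51 TPM in T29I and 24.4 and 30.9 TPM in WT, with adjusted log2 ratios of -0.27 and 0.22. Ctnnb1, or beta-catenin, was at 80.5 TPM in T29I and 449.7 TPM in WT and was the gene that stayed lower after adjustment, at -1.47. Tcf7l1, which represses Esrrb and other naive genes, was at 78.8 TPM in T29I and 39.3 TPM in WT, with an adjusted log2 ratio of 0.76. Tfe3, which drives Esrrb when it enters the nucleus, was at 42.8 TPM in T29I and 31.8 TPM in WT.

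Genes held down by Prdm14, or switched on as naive cells proceed toward the post-implantation epiblast, went in both directions as deposited. Of 12 such genes 11 averaged 1 TPM or more. Of these, 5, namely Pou3f1, Zic2, Fgf5, Dnmt3l and Sox3, were at least 2-fold higher and 1, Fgfr2, lower as deposited. After adjustment 8 were higher and 0 lower, and the medians were 0.43 as deposited and 1.46 adjusted. Those 8 were Pou3f1, Fgf5, Dnmt3a, Lef1, Dnmt3l, Zic2, Dnmt3b and Otx2, whereas Sox3 had an adjusted log2 ratio of -0.74. Over all genes, 9.97% were higher and 45.7% lower as deposited, and 17.6% higher and 15.5% lower after adjustment. Dnmt3l and Dnmt3b, of the de novo DNA methylation machinery, were at 568 and 209 TPM in T29I and 206 and 154 TPM in WT. Dnmt3a, the other catalytic de novo enzyme, was at 22.6 TPM in T29I and 25.7 TPM in WT. The adjusted log2 ratios of Dnmt3l, Dnmt3b and Dnmt3a were 1.51, 1.38 and 2.16. Zic2 and Pou3f1 were at 31.9 and 78.0 TPM in T29I and 7.09 and 5.31 TPM in WT. The FGF receptor genes Fgfr1 and Fgfr2 were at 14.8 and 2.61 TPM in T29I and 26.6 and 6.84 TPM in WT, with adjusted log2 ratios of 0.13 and 0.12.

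**Figure D5:**
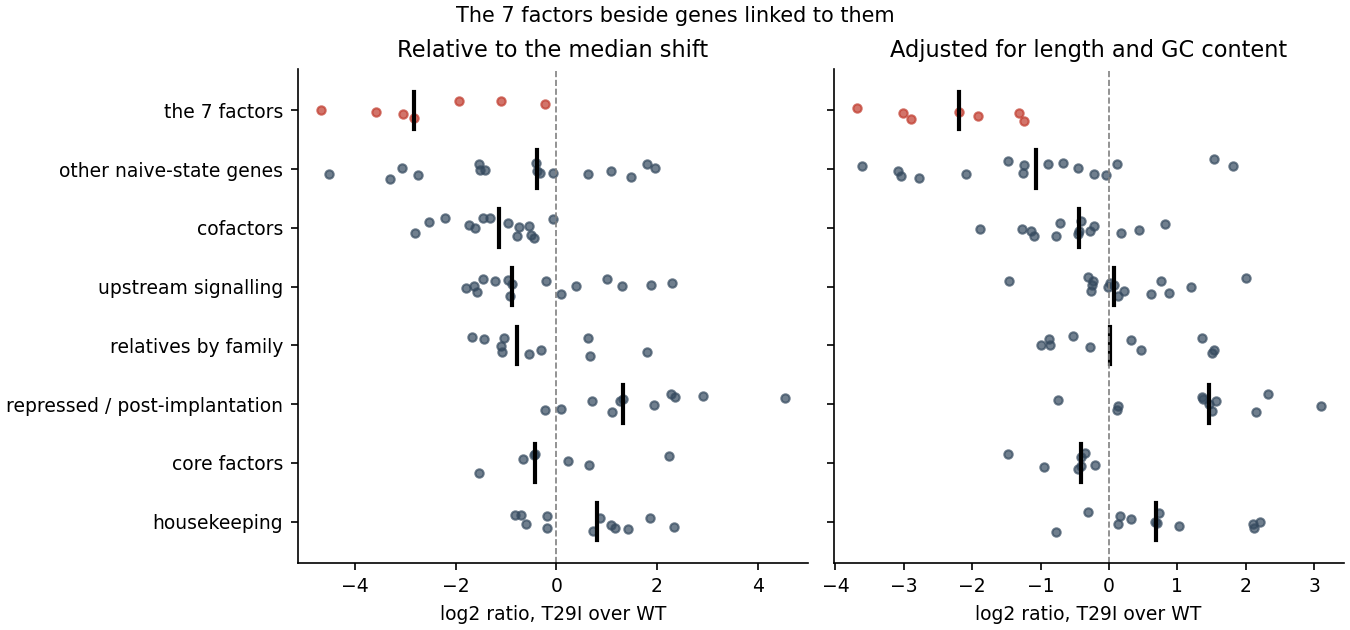
Log2 ratio of T29I over WT for each gene whose mean TPM was 1 or more, by gene list, relative to the median shift (left) and adjusted for transcript length and GC content (right); points are genes, spread vertically for legibility, and black bars are list medians. The 7 factors have medians of -2.83 and -2.20, and the list of repressed and post-implantation genes 1.33 and 1.46.

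Genes with the most alike pair of levels were found by distance in log2(TPM + 1) over the 2 libraries, among 8876 named genes averaging 5 TPM or more. With 2 libraries the measure says only that levels are near. For Tfcp2l1 they were Mki67, at 3.48 TPM in T29I and 129 TPM in WT, Zfp978 and Tpr. For Zfp42 they were Nasp, at 21.8 TPM in T29I and 397 TPM in WT, Cox7b and Srrm2, and for Esrrb they were Uqcrb, Hat1 and Naca, all within a distance of 0.14.

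Both libraries held ES cell markers, and the libraries differed in depth and in marker levels. The estimated depth was 15281662 reads in T29I and 16910002 in WT, and the 20 most abundant genes held 27.0% of TPM in T29I and 16.9% in WT. All 7 core factors were above 1 TPM in both, with sums of 4920 TPM in T29I and 5339 TPM in WT. Of these 7, 4 were at least 2-fold lower and 1, Utf1, higher as deposited, beside 45.7% lower and 9.97% higher over all genes. After the length and GC adjustment 1, Nanog, was lower and 0 higher, beside 15.5% lower and 17.6% higher over all genes. Utf1 was at 2459 TPM in T29I and 972 TPM in WT, and Nanog at 140 TPM in T29I and 765 TPM in WT. Pou5f1 was at 1454 TPM in T29I and 1722 TPM in WT. The adjusted log2 ratios of Utf1, Nanog and Pou5f1 were -0.40, -1.48 and -0.95. Prss1 was listed at 0 in both, so its level does not check the labels. The 10 trophoblast markers summed to 915 TPM in T29I and 127 TPM in WT, with 8 above 1 TPM in T29I and 5 in WT. Of 7 with a mean of 1 TPM or more, 5 were at least 2-fold higher and 1, Eomes, lower. Over all genes 9.97% were higher and 45.7% lower. Eomes was at 2.19 TPM in T29I and 6.21 TPM in WT. Among those higher, Krt8 was at 389 TPM in T29I and 28.6 TPM in WT. Krt18 was at 353 TPM in T29I and 15.4 TPM in WT, and Hand1 at 79.5 TPM in T29I and 0.868 TPM in WT. Cdx2 and Elf5, which define that lineage, were at 0.402 and 0.103 TPM in T29I and 0.256 and 0.0983 TPM in WT, and Plac1 was listed at 0 in WT. The 10 primitive endoderm markers summed to 247 TPM in T29I and 139 TPM in WT, mostly from Sparc. Of 4 with a mean of 1 TPM or more, 1, Sparc, was at least 2-fold higher and 2 lower. The shares over all genes were 9.97% and 45.7%. The lower ones were Lama1, at 0.588 TPM in T29I and 33.8 TPM in WT, and Sox7, at 0.184 TPM in T29I and 6.02 TPM in WT. Gata4, Gata6 and Sox17 were below 1 TPM in both. The 10 fibroblast markers summed to 20.7 TPM in T29I and 9.52 TPM in WT, with Lum listed at 0 in both. Thy1 alone was at 17.6 TPM in T29I and 4.57 TPM in WT, and 8 of the 10 were below 1 TPM in each library. The part of these markers, and of transcript length and GC content, in the lower levels of the 7 factors was not tested.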

How the data were processed

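Per the labels' protocols, Isogen-extracted RNA went into stranded total RNA libraries (Illumina TruSeq) after removal of ribosomal RNA with Ribo-Zero. The authors deposited 1 table of TPM per gene for 1 T29I and 1 WT library, each summing to 1000000. The steps from reads to values, and the build, were not given in the sources used here. Columns were assigned through the sample descriptions. Of 51826 gene identifiers 51633 matched GENCODE M21 (GRCm38), which gave positions, merged exon lengths, longest transcripts and GC content, and the authors' build may differ. TPM times merged exon length, divided by the value of 1 read, was whole within 0.05 for 81.3% of T29I and 83.7% of WT values below 1000 reads, and this gave the estimated reads and the exact 95% Poisson intervals, which cover counting error only.

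Log2 ratios are T29I over WT on TPM with a pseudocount of 1, for genes averaging 1 TPM or more. The adjusted ratio is what a second-degree surface in transcript length (log2, longest transcript) and GC content leaves over, estimated from protein-coding genes averaging 5 TPM or more. It also removes real differences that track these properties, and the longest transcript need not be the one expressed. No test was run, with 1 library per group. The 7 factors and all 11 gene lists were chosen with earlier results of these data known. Beyond the 7, names were drawn from the 2 lowest and 2 highest genes of a list, genes linked directly to a factor, the nearest expressed neighbours and the 3 most alike genes. Not all of these were given above, and Sox15, Hdac1 and Hdac2, each among the 2 highest of its list as deposited, were left out. Members of small counts, Ctnnb1, Dnmt3l, Dnmt3a, Klf2 and Tbx3os1 among them, were named after their values were seen. Promoter windows and sequences are from RefSeq (GRCm38.p6). The code was tested on simulated data, with Python 3.11.15, NumPy 2.4.6, pandas 2.3.3 and SciPy 1.17.1.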

Additional observations from a re-analysis of the deposited data

How the results depend on the processing

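Of 9 alternatives, 2 set only which genes are kept, and all 7 factors pass both. Under the other 7 every log2 ratio of the 7 factors stayed below 0, in 49 of 49 values, and 46 of them were at least 2-fold. The 3 exceptions were all Nr0b1, at -0.23 relative to the median shift, -0.94 without the 20 most abundant genes of each library and -0.63 on estimated reads scaled to each library's total, an alternative chosen after seeing the data. The number of factors at least 2-fold lower was 7, or 6 under these 3 alternatives. In the same order, 22.2%, 42.5% and 34.9% of all genes were at least 2-fold lower under these 3. The median log2 ratio of all genes as deposited, -0.84, was also below 0. The median log2 ratio of the 7 ranged from -4.09 with a pseudocount of 0.1 to -2.20 after the length and GC adjustment. Tfcp2l1 ranged from -5.92 to -3.01, Zfp42 from -4.54 to -3.59 and Esrrb from -2.01 to -1.10. The share of all genes at least 2-fold lower was 45.7%, against 31.3% with a pseudocount of 5 and 22.2% relative to the median shift. It was 15.5% after the length and GC adjustment and 12.1% with no filter on low values. Removing the filter adds genes at or near 0. Without a pseudocount, estimated reads scaled to the total raise the log2 ratio of every gene by 0.49, leaving out the 20 most abundant genes by 0.19 and scaling to the housekeeping genes by 0.09; with the pseudocount, low genes move less. No paired analysis was possible because there was 1 library per group. Depth limits Prdm14, Nr5a2 and Tfcp2l1 most, with 71, 109 and 194 estimated reads in T29I.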

Other observations

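Genes next to the factors on their chromosomes were also measured, as 2 expressed genes on each side of each factor. Of these 28 neighbours 21 were at least 2-fold lower in T29I and 0 at least 2-fold higher, beside 45.7% lower and 9.97% higher over all genes, with a median log2 ratio of -1.74 as deposited and -0.22 after the length and GC adjustment. The lowest was Triml2, 101182 bases from Zfp42, at 0.876 TPM in T29I and 137.5 TPM in WT, with an adjusted log2 ratio of -4.94. Fat1, an atypical cadherin gene on the other side of Zfp42 at 1628467 bases, was at 4.53 TPM in T29I and 101 TPM in WT, with an adjusted log2 ratio of -0.98. On chromosome 1, Gli2, a Hedgehog-pathway factor 148964 bases from Tfcp2l1, was at 1.39 TPM in T29I and 32.6 TPM in WT, and its adjusted log2 ratio was -2.66. Inhbb, an activin subunit 730297 bases from Tfcp2l1, was at 1.07 TPM in T29I and 81.1 TPM in WT, at -5.28 after adjustment. Clasp1, a microtubule-binding protein gene 15267 bases away on the other side, had an adjusted log2 ratio of 0.40.

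The 8 neighbours of Prdm14 and Nr0b1, a pair picked after values were seen, were all at least 2-fold lower as deposited, beside 45.7% of all genes. After adjustment 0 of the 8 were lower and 1 was higher, beside 15.5% lower and 17.6% higher over all genes. Ncoa2, a coactivator gene 11942 bases from Prdm14, was at 2.17 TPM in T29I and 10.5 TPM in WT, with an adjusted log2 ratio of 0.43. Tab3 and Gk, on one side of Nr0b1, had adjusted log2 ratios of -0.23 and 0.41. Tfcp2l1, Nr5a2 and Prdm14 all lie on chromosome 1, where the median log2 ratio of 683 genes was -1.19, against -0.84 over all genes. On the chromosomes of the other factors it was -1.21 on chromosome 12, -1.03 on X, -0.77 on 5 and -0.75 on 8.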
